A study of Caenorhabditis elegans with 10 samples.

Results

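The genes described here are those annotated as small nuclear RNA (snRNA) or transfer RNA (tRNA) that gave at least 1 read in at least 5 of the 10 libraries. This rule kept 125 of the 46536 genes, namely 46 of 130 snRNA genes and 79 of 634 tRNA genes. The rule used the level itself but not the genotype, and 0 of the 125 genes had reads in only one group. The libraries came from dissected germline tumours of Caenorhabditis elegans of the Bristol strain, as adults on day 1, grown for 48 h at 25 °C as bleach-synchronised animals. Both groups share the mutations gld-2(q497) gld-1(q485), under which the germline forms a tumour of dividing cells instead of gametes. The 5 ON libraries also had the allele glp-1(ar202), which keeps the germline Notch receptor active, and the 5 OFF libraries had glp-1(q175), which removes its function. The alleles act in the whole worm, and the labels do not say how many gonads were pooled for a library. Total RNA was depleted of rRNA before sequencing, and replicates are biological by the design text, which gives no further source, so p-values measure the spread between these libraries.

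The spliceosome is built on snRNAs, which pair with the splice sites and the branch point and are bound by a ring of Sm proteins. In C. elegans many messenger RNAs also receive a short leader by trans-splicing. The leader is donated by SL1 RNA or, mostly at downstream genes of operons, by SL2 RNA, and SmY RNAs are small Sm-bound RNAs associated with trans-splicing. tRNAs carry amino acids to the ribosome and are made by RNA polymerase III, whereas the spliced leader RNAs and most spliceosomal snRNAs are made by RNA polymerase II. The snRNA class of the table is therefore wider than the spliceosome. Its 46 members are 14 SL2 RNA genes (sls-2), 5 SmY RNA genes (smy) and 27 others, and the table gives no U-type for any of the 27.

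Values are the authors' CPM, reads per 1 M reads assigned to genes. The libraries held 17.5 to 38.5 M reads in genes, so 1 read was worth 0.0260 to 0.0571 CPM. Genes of rRNA took 38.9% to 50.7% of reads and were highest in OFF replicate 1, ON replicate 2 and OFF replicate 5. The targeted gene glp-1 ranged from 206 to 274 CPM with GLP-1 ON and from 69.7 to 101 CPM with GLP-1 OFF, in the direction of the labels, although the labels do not say what either allele does to the RNA. The germline markers pgl-1 and glh-1 averaged 907 ± 121 and 496 ± 104 CPM in ON and 837 ± 85.7 and 494 ± 116 CPM in OFF (SD, n = 5). Of 5 tested germline markers 2 were lower in ON, cgh-1 at 195 ± 40.4 CPM against 305 ± 56.6 CPM (log2 difference -0.65, limma adjusted p = 0.0025) and pie-1 (-0.40, adjusted p = 0.0429), and after TMM scaling 1 was. Among all tested genes 12.4% were lower in ON by limma and 18.3% after TMM scaling. Of 26 somatic markers 0 were at 0 in every library, and their summed level was 57.6 to 84.6 CPM in ON and 69.9 to 98.8 CPM in OFF. The intestine-defining gene elt-2 averaged 0.018 and 0.019 CPM, on 5 reads in all. Of the other intestine markers vit-2, vit-5, vit-6 and asp-1 had lower means in ON, and ges-1 had a higher mean. For vit-6 the means were 1.47 CPM in ON and 2.96 CPM in OFF, without a call. The muscle markers unc-54, myo-3, unc-15 and mlc-1 also had lower means in ON without a call. Of the 10 somatic markers tested 9 had a log2 difference below 0, as did 59.5% of all tested genes. The list median was -0.31 against -0.05 for all tested genes. By limma 1 was lower in ON, the sheath gene lim-7. The sheath genes inx-8 and inx-9 had log2 differences of -0.31 and -0.26 (adjusted p = 0.0545 and 0.10). After TMM scaling 3 were lower, namely lim-7, inx-8 and inx-9 (limma adjusted p = 0.0307, 0.0204 and 0.0371). The other listed gene of sheath and spermatheca, fkh-6, was not tested and had a higher mean in ON. The part of somatic and germline cell makeup in the results below was not tested.

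Most copies of these multigene families had no reads at all. All 12 SL1 RNA genes were listed at 0 in every library, although SL1 is the most used leader in the worm, and so were 449 of 634 tRNA genes and 65 of 130 snRNA genes. In contrast, 14 of 18 SL2 RNA genes and 19 of 22 mitochondrial tRNA genes were members, against 60 of 612 nuclear tRNA genes. How reads that match several identical copies were treated is not given in the sources used here, so a 0 does not show that a copy is silent. The levels below are those of copies that received reads, and reads of close copies may be divided between them.

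**Figure D1:**
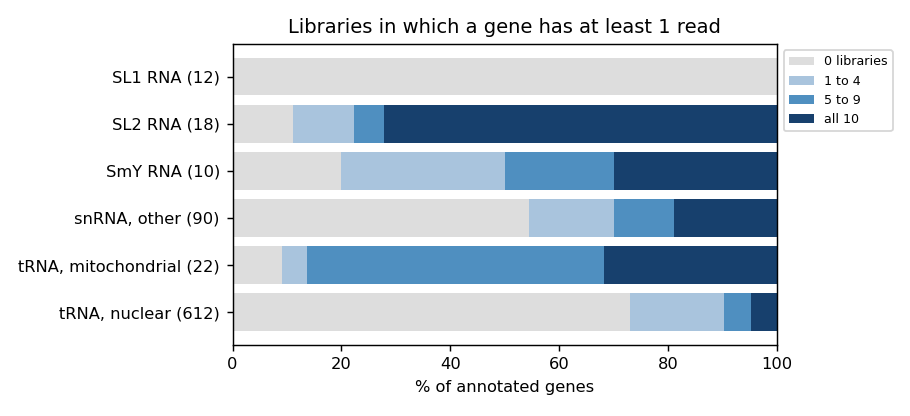
Share of the annotated genes of each family, in percent, by the number of libraries with at least 1 read (number of annotated genes in parentheses). All 12 SL1 RNA genes lie in the bar for 0 libraries, and 13 of 18 SL2 RNA genes had reads in all 10.

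At the edge of the rule, 12 members had reads in exactly 5 libraries and 18 further genes in exactly 4. Those 2 snRNA and 10 tRNA genes inside the edge summed to 5 to 15 reads over all libraries. The 3 snRNA and 15 tRNA genes outside it summed to 4 to 8 reads.

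The summed level of both classes was lower in every library with the receptor active than in any without it. The summed level of the 46 snRNA members was 1196, 1546, 1309, 1194 and 1202 CPM in ON replicates 1 to 5. In OFF replicates 1 to 5 it was 2620, 1609, 1757, 1736 and 2047 CPM. The groups did not overlap, and the gap between ON replicate 2 and OFF replicate 2 was the narrowest. The ON mean was 1289 ± 151 CPM and the OFF mean 1954 ± 405 CPM (SD, n = 5), a ratio of 1.52. The summed level of the 79 tRNA members was 52.9, 50.1, 40.4, 45.9 and 40.9 CPM in ON replicates 1 to 5. In OFF replicates 1 to 5 it was 88.6, 56.3, 68.9, 59.9 and 93.98 CPM. Again every ON library lay below every OFF library, with means of 46.03 ± 5.52 CPM and 73.5 ± 16.9 CPM, a ratio of 1.598. The separation depended on the scaling: after TMM scaling, median-ratio scaling or scaling to reads outside rRNA genes the ON and OFF groups overlapped for both totals, with log2 ratios of ON to OFF of -0.57, -0.56 and -0.61 for snRNA and -0.66, -0.64 and -0.69 for tRNA. TMM scaling divided the CPM of ON replicate 2 by 0.909 and that of OFF replicate 2 by 1.17, which narrows or closes gaps between these libraries. Overlap of groups for subsets and single genes is given below in CPM only, so separation there holds for that scale alone. No p-value is given for these sums, because the genes were chosen with earlier results known.

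Within each group the libraries highest in snRNA total were also highest in snoRNA and rRNA share. Beyond these the order did not hold in ON. There replicate 1 had 46.5% of reads in rRNA genes and a summed snRNA level of 1196 CPM, and replicate 3 had 43.5% and 1309 CPM. The tRNA total of the ON libraries was highest in replicate 1. OFF replicates 1 and 5 and ON replicate 2, the 3 libraries with over 48% of reads in rRNA genes, also had the highest summed snRNA levels of their group. The summed level of all 345 snoRNA genes, the guides of rRNA modification, was 27657 and 24322 CPM in OFF replicates 1 and 5 and 20536 to 21276 CPM in the other OFF libraries. In ON it was 23596 CPM in replicate 2 and 20765 to 21379 CPM in the others. Between groups, however, snoRNA and rRNA overlapped, at 21523 ± 1182 and 22895 ± 3073 CPM and at 44.5 ± 3.65% and 43.99 ± 5.10% (ON and OFF, SD, n = 5). Relative to the summed snoRNA level, snRNA members stood at 5.73% to 6.55% in ON and 7.83% to 9.47% in OFF. tRNA members stood at 0.189% to 0.253% in ON and 0.274% to 0.386% in OFF, so both classes remained without overlap on this scale. Without the 3 libraries high in rRNA the log2 ratio of ON to OFF was -0.47 for snRNA and -0.45 for tRNA, against -0.60 and -0.68 with all libraries. The median log2 difference of the tested snRNA genes was then -0.10, beside -0.11 for all tested genes, and that of the tested tRNA genes was -0.43.

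The library numbers in the labels fall into 3 sets, 56 to 58, 85 to 88 and 127 to 130, whose meaning the labels do not give. ON has 1 library in the first set, 1 in the second and 3 in the third, and OFF has 2, 2 and 1, so each value within a set rests on a single library of one group. The log2 ratio of ON to OFF for the snRNA total was -0.82, -0.18 and -0.73 within these sets, and -0.45, -0.36 and -1.15 for the tRNA total. The direction was the same in each set, and the snRNA difference was smallest in the second. In these bulk libraries fewer cells with a given RNA and less of it per cell cannot be told apart.

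**Figure D2:**
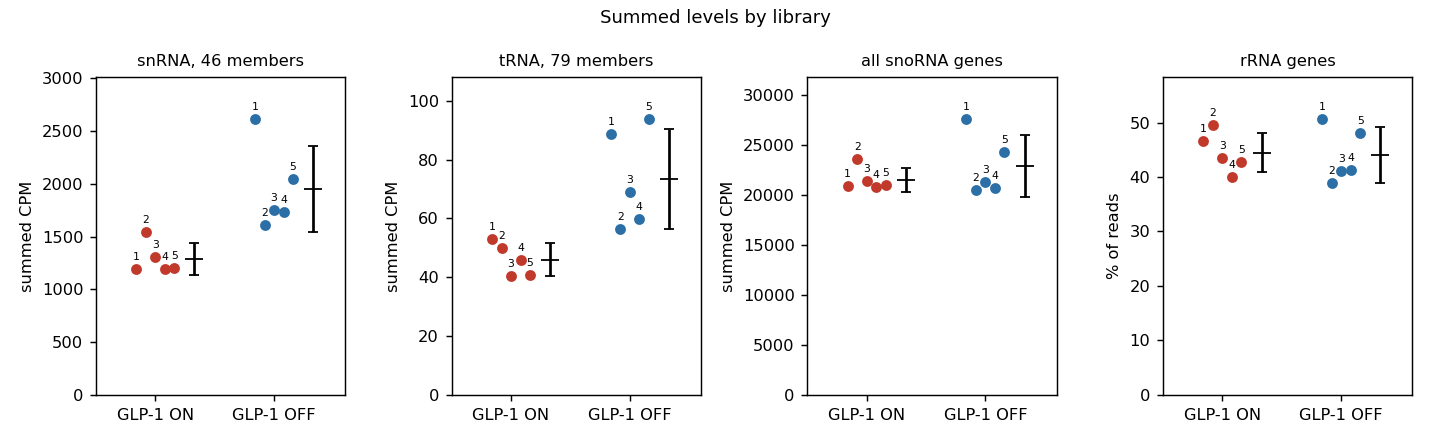
Summed CPM of the snRNA members, the tRNA members and all snoRNA genes, and percent of reads in rRNA genes, in each library. Points are libraries with their replicate number and bars are mean ± SD (n = 5). The snRNA and tRNA groups do not overlap, at up to 1546 CPM in ON and from 1609 CPM in OFF for snRNA, whereas the snoRNA and rRNA groups do.

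Tests were made gene by gene with limma over the 6833 genes that reached 1 CPM in at least 5 libraries, a filter passed by 20 snRNA and 7 tRNA members. A log2 difference is ON minus OFF on the scale of log2(CPM + 1), and calls are made at an adjusted p under 0.05. Of the 20 tested snRNA genes 8 fell and 2 rose in ON, and of the 7 tested tRNA genes 3 fell and 0 rose. Among all tested genes 12.4% fell and 6.7% rose, or 19.1% in either direction. After TMM scaling 34.8% of all genes were called, after median-ratio scaling 34.7%, by edgeR 34.9% and by DESeq2 37.1%. Under each of these 4 settings 7 snRNA genes fell and 2 rose, and 3 tRNA genes fell. The median log2 difference was -0.23 for the tested snRNA genes, -0.55 for the tested tRNA genes and -0.05 for all tested genes. The tested 27 are the abundant fraction of the members, so these counts do not speak for all 125. Of the 2 snRNA genes that rose, sls-2.11 reached 1 CPM in ON only. The other, F56A12.5, reached it in ON and in OFF replicate 1 only.

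**Figure D3:**
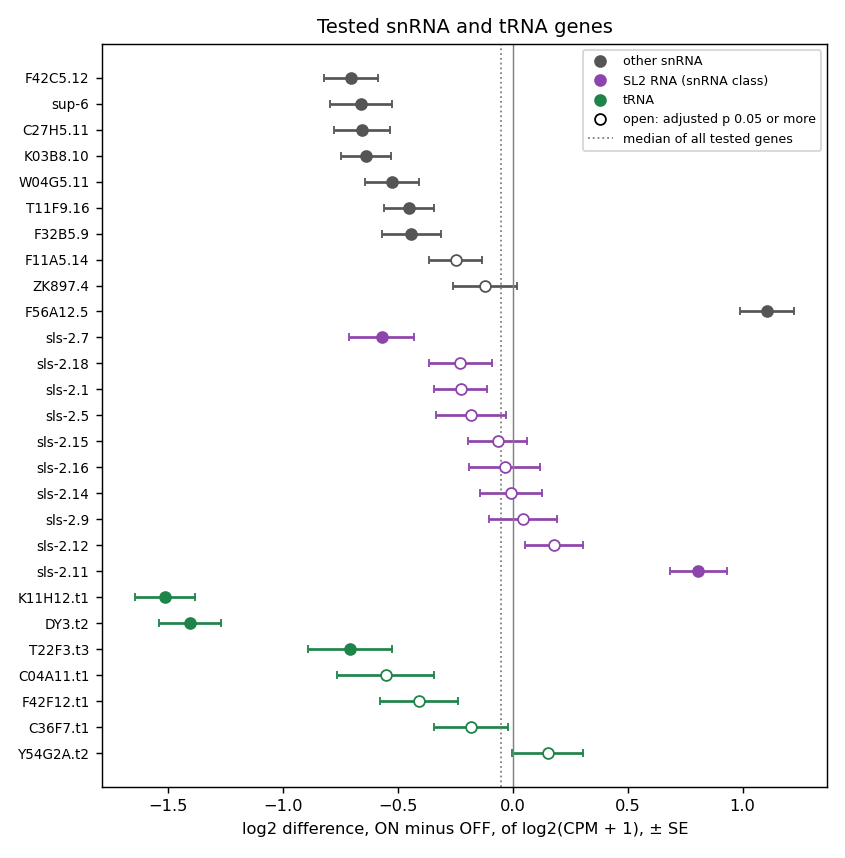
Log2 difference, ON minus OFF, of log2(CPM + 1) with its standard error from limma for the 20 tested snRNA and 7 tested tRNA genes. Filled points have an adjusted p under 0.05, and the dotted line is the median of all tested genes at -0.05. F56A12.5 and sls-2.11 stand to the right, and K11H12.t1 and DY3.t2 farthest to the left.

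Among the snRNAs outside the SL2 and SmY families, 7 of 10 tested genes fell, 1 rose and 2 had no call. The most abundant was sup-6, a U1 snRNA gene known from dominant suppressor mutations that restore splicing at mutant splice sites. It lies on chromosome II at 12944803 to 12944967, minus strand, within an intron of F58G1.7. All positions here are those that Ensembl gives on WBcel235 for the gene identifiers. Its level was 702, 896, 716, 672 and 617 CPM in ON replicates 1 to 5 and 1575, 904, 1021, 1042 and 1223 CPM in OFF replicates 1 to 5. ON replicate 2 nearly reached OFF replicate 2, and all other ON libraries lay well below every OFF library. Means were 721 ± 105 CPM for ON and 1153 ± 262 CPM for OFF (SD, n = 5), and the log2 difference was -0.66 ± 0.13 (SE) with a limma adjusted p of 0.0013. By set of library numbers the log2 differences were -0.76, -0.20 and -0.87. The host gene F58G1.7, at 1.42 CPM on average, did not pass the test (log2 difference 0.08, adjusted p = 0.724). This single gene supplied 57.8% of the reads of all snRNA members. Without it the remaining snRNA members still summed to 1.41 times more in OFF, without overlap in CPM.

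Grouped by annotated length, the 163 to 165 nt snRNAs held sup-6, C27H5.11 and 4 members at 0.03 to 0.11 CPM. C27H5.11 (chromosome II, 7171842 to 7172004, in no other gene) was at 30.1, 37.5, 30.5, 25.4 and 27.1 CPM in ON replicates 1 to 5. It was at 63.3, 42.7, 42.03, 43.7 and 49.7 CPM in OFF replicates 1 to 5. Like sup-6 it was lower in every ON library than in any OFF library, by a factor of 1.602 in the means (limma log2 difference -0.66, adjusted p = 5.4e-04). The other 4, T27E4.10, T27E4.11, F40G12.13 and F40G12.14, lie on chromosome V and were not tested.

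Next in level per length came F42C5.12 and F32B5.9, of 122 and 123 nt. Mean levels over all libraries were 568 CPM per 100 nt for sup-6, 216 CPM per 100 nt for F42C5.12 and 92.4 CPM per 100 nt for F32B5.9. F42C5.12 (chromosome IV, 7316732 to 7316853) lies in an intron of F42C5.9 on the opposite strand. It was at 183, 231, 201, 179 and 203 CPM in ON replicates 1 to 5 and 434, 276, 309, 292 and 331 CPM in OFF replicates 1 to 5. The groups did not overlap, and its log2 difference of -0.70 ± 0.12 (SE; limma adjusted p = 1.9e-04) was the largest decrease among the tested snRNAs. F32B5.9 (chromosome I, 2688947 to 2689069) lies in an intron of cpz-1 on the opposite strand. Its ON libraries averaged 96 ± 14.7 CPM and reached 109.5 CPM, while its OFF libraries averaged 131.3 ± 26.2 CPM (SD, n = 5) and began at 113.3 CPM. OFF replicate 1, at 178 CPM, stood apart from the 113.3 to 123.9 CPM of the other OFF libraries. The call for F32B5.9 (log2 difference -0.44, limma adjusted p = 0.0185) was lost after TMM scaling (adjusted p = 0.0738), median-ratio scaling (0.0809) and scaling to snoRNA reads (0.305), in edgeR (0.0659) and DESeq2 (0.122), and without ON replicate 1 (0.0621). Its host cpz-1 moved the other way, with a log2 difference of 0.41 (adjusted p = 0.0121). The third tested gene of this length, ZK897.4, sits on the same strand in an intron of unc-31. Its level was 1.77 ± 0.517 CPM with GLP-1 ON and 2.01 ± 0.543 CPM with GLP-1 OFF, with no call (adjusted p = 0.594), while the level of unc-31 rose in ON by a log2 difference of 1.80 (adjusted p = 4.3e-10).

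The 185 to 187 nt snRNAs behaved unevenly. W04G5.11 (chromosome I, 11649503 to 11649687) fell from 77.4 ± 15.4 CPM to 52.9 ± 4.97 CPM with GLP-1 ON, without overlap between 59.7 CPM, the highest ON library, and 65.9 CPM, the lowest OFF library. Its log2 difference was -0.52 (limma adjusted p = 0.0031, and 0.132 after scaling to snoRNA reads). F11A5.14 (chromosome V, 16225701 to 16225887) was at 84.2 ± 6.95 CPM with GLP-1 ON and 101.4 ± 19.9 CPM with GLP-1 OFF, and the groups overlapped. Its log2 difference of -0.25 ± 0.12 (SE) did not pass the test (adjusted p = 0.149). Whether these 2 genes differ from each other in their response was not tested.

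Both tested genes of 144 nt fell, and both lie on chromosome V outside other genes. K03B8.10 was at 6.29, 6.25, 6.59, 4.28 and 4.75 CPM in ON replicates 1 to 5 and 9.07, 8.78, 9.35, 9.04 and 9.87 CPM in OFF replicates 1 to 5. Its OFF libraries were the most even of the tested snRNAs, with a coefficient of variation of 4.5%, and its log2 difference was -0.64 (limma adjusted p = 2.4e-04). T11F9.16 averaged 9.89 ± 0.586 CPM in ON against 14.04 ± 2.64 CPM in OFF, also without overlap (log2 difference -0.45, adjusted p = 0.0053). Its call was lost without the 3 libraries high in rRNA (adjusted p = 0.0582) and after scaling to snoRNA reads (0.155). Over the 7 snRNAs that fell outside the SL2 family, OFF exceeded ON by factors of 1.37 to 1.65, and all 7 had groups without overlap. These 7 were already called lower, so their separate groups add no support. Of the 10 tested snRNAs outside the SL2 family, 7 had separate groups with ON lower and 1 with ON higher. The shares of all tested genes were 9.92% and 5.01%.

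Among the tested snRNAs outside the SL2 family F56A12.5 was the 1 that rose. This 108 nt snRNA gene (chromosome V, 14361928 to 14362035, minus strand, in no other gene) was at 3.53, 2.82, 2.29, 2.80 and 3.74 CPM in ON replicates 1 to 5. In OFF replicates 1 to 5 it was at 1.12, 0.70, 0.69, 0.85 and 0.97 CPM. Its lowest ON library had more than its highest OFF library, and the mean was 3.51 times as high in ON (log2 difference 1.11 ± 0.12, SE; limma adjusted p = 9.2e-07). The differences within the 3 sets of library numbers were 1.26, 1.11 and 0.99. It rests on 550 reads over all libraries. Its ON libraries carried it past the filter of 1 CPM, since only replicate 1 reached that level in OFF. The test of F56A12.5 is therefore tied to the direction of its difference.

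**Figure D4:**
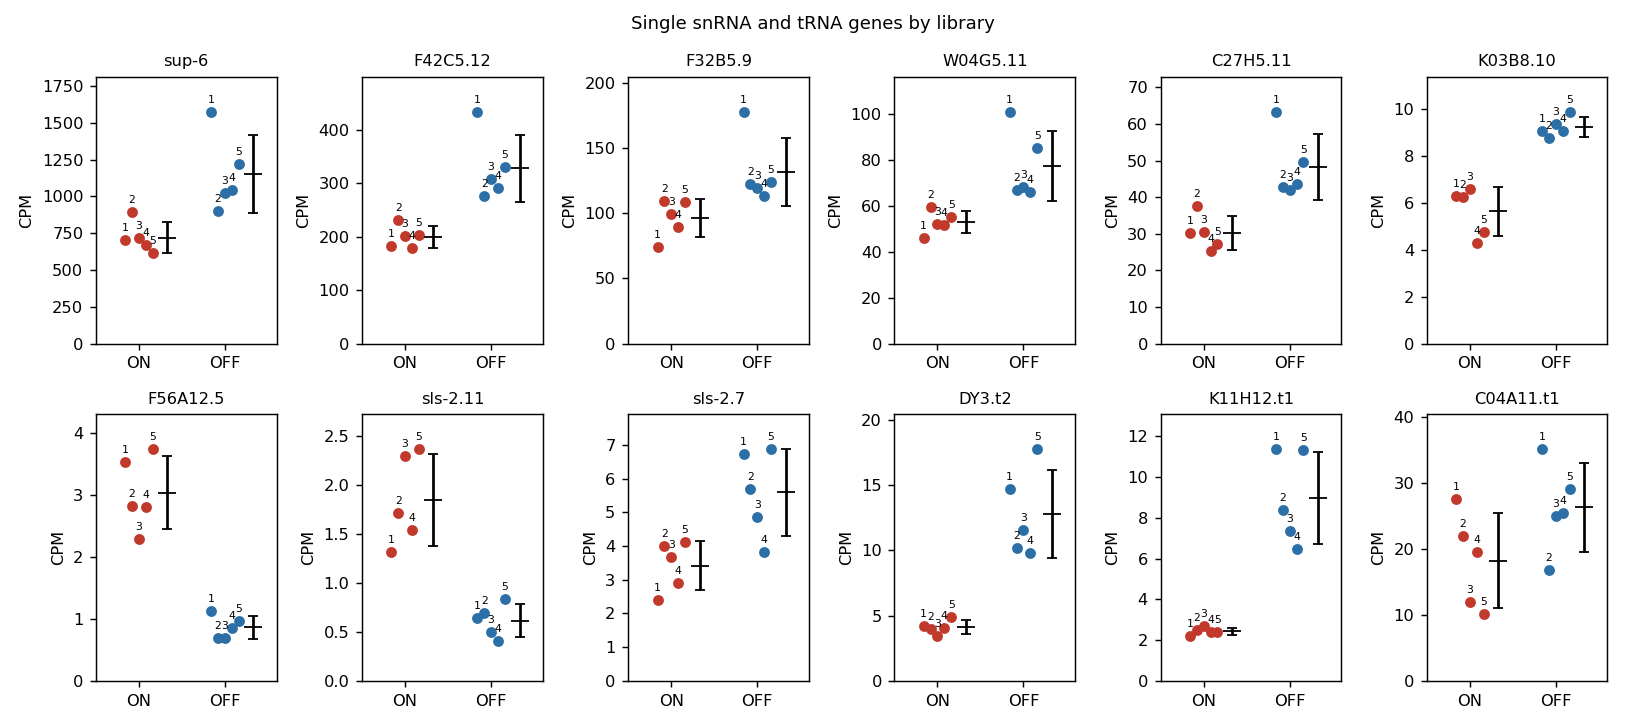
CPM of 12 snRNA and tRNA genes in each library, each panel on its own axis from 0. Points are libraries with their replicate number and bars are mean ± SD (n = 5). OFF lies above ON without overlap for 8 of the panels, from sup-6 to K03B8.10 and for DY3.t2 and K11H12.t1, ON lies above OFF for F56A12.5 and sls-2.11, and the groups overlap for sls-2.7 and C04A11.t1.

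Of 10 tested SL2 RNA genes 8 had no call, sls-2.7 fell and sls-2.11 rose, a share of calls near the 19.1% of all tested genes. The 14 SL2 members summed to 80.3 ± 17.4 CPM with GLP-1 ON and 83.4 ± 13.6 CPM with GLP-1 OFF (SD, n = 5), with log2 ratios of -0.71, 0.28 and -0.10 within the 3 sets of library numbers. The most abundant was sls-2.14, one of a pair with sls-2.15 in introns of W09D6.5 on chromosome III. Its level was 14.5, 24.1, 25.0, 21.4 and 21.9 CPM in ON replicates 1 to 5 and 24.5, 21.0, 20.7, 16.3 and 24.3 CPM in OFF replicates 1 to 5. The ranges overlapped broadly, and its log2 difference was -0.01 ± 0.13 (SE; limma adjusted p = 0.977). The level of sls-2.15 was 13.1 ± 2.66 CPM with GLP-1 ON and 13.6 ± 1.98 CPM with GLP-1 OFF (adjusted p = 0.777).

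The SL2 genes shared their library pattern. ON replicate 1 was the lowest ON library for 9 of the 10 tested genes, and OFF replicate 4 was the lowest OFF library for all 10. OFF replicate 1 was the highest OFF library for 6 of these 10 genes and for 9 of the 10 tested snRNAs outside the SL2 family. A second SL2 group, sls-2.5, sls-2.16 and sls-2.18, lies between 7140447 and 7142397 on chromosome III. The first 2 are in introns of glr-2, and sls-2.18 overlaps an exon of the non-coding gene B0280.21. These 3 genes had levels of 12.3 ± 3.36, 10.4 ± 2.95 and 4.98 ± 1.17 CPM in ON and 13.9 ± 2.34, 10.5 ± 1.98 and 5.96 ± 1.014 CPM in OFF, and none was called (adjusted p from 0.271 to 0.904). The level of glr-2 itself rose by a log2 difference of 0.33 (adjusted p = 0.0395). The uncalled SL2 genes sls-2.9, sls-2.12 and sls-2.1 had mean levels of 6.81, 2.05 and 1.52 CPM over all libraries, with log2 differences of 0.05, 0.18 and -0.23 (adjusted p from 0.186 to 0.869).

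The SL2 genes that changed did so in both directions. For sls-2.7 (chromosome I, 9057890 to 9057999) the level was 2.40 to 4.13 CPM in ON and 3.82 to 6.87 CPM in OFF. ON replicates 2 and 5 lay above OFF replicate 4, and the log2 difference was -0.57 (limma adjusted p = 0.0064). For sls-2.11 (chromosome IV, 9140415 to 9140523) the level was 1.31, 1.72, 2.29, 1.54 and 2.36 CPM in ON replicates 1 to 5. In OFF replicates 1 to 5 it was 0.64, 0.70, 0.50, 0.41 and 0.83 CPM. The groups did not overlap, and the mean was 3.0 times as high in ON. Its log2 difference was 0.81 (adjusted p = 8.1e-05), but it passed the filter of 1 CPM only through its ON libraries, so this test is tied to the direction of its difference. In the fit of all 13784 genes above 0 in at least 5 libraries, where sls-2.11 had reads in all 10, its adjusted p was 2.8e-04 in limma. Its neighbour sls-2.10 (chromosome IV, 9130721 to 9130829), which did not reach the filter, had 0.80 to 1.51 CPM in ON and 0.28 to 0.48 CPM in OFF. It is named here because its groups do not overlap and was chosen after its values were seen. In the same fit, in which 4.97% of genes rose, sls-2.10 had a limma adjusted p of 4.1e-04, and 4.13% of those genes had separate groups with ON higher. Such close copies may share reads, so the separate values of sls-2.10 and sls-2.11 are uncertain.

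The SmY genes were near the detection limit, and 0 of 5 members were tested. They summed to 2.19 ± 0.828 CPM with GLP-1 ON and 1.82 ± 0.493 CPM with GLP-1 OFF (SD, n = 5). The ON and OFF levels of smy-1 were 0.87 ± 0.22 and 0.89 ± 0.27 CPM, and those of smy-10 were 0.51 ± 0.25 and 0.17 ± 0.099 CPM. In the fit with all 13784 genes smy-10 had an adjusted p of 0.0270 in limma. It rests on 100 reads in all, and the reason for naming it is again its value.

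Nuclear tRNA genes had low CPM, and few of them carried the class. How well such short RNAs were captured in the libraries was not tested, so CPM is not read as the amount of tRNA in the cells. The most abundant 6 tRNA genes held 77.4% of the reads of all tRNA members. The median annotated length of nuclear tRNA members was 72.5 nt, and 4 members had 115 nt or more, C04A11.t1, F42F12.t1, ZK822.t1 and F47E1.t3. Only 9 of the 612 nuclear tRNA genes are annotated at 100 nt or more. The files and the annotation used here do not name the amino acid of a tRNA gene.

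The clearest tRNA differences were in K11H12.t1 and DY3.t2. K11H12.t1 (chromosome IV, 658181 to 658266, plus strand) was at 2.18, 2.48, 2.7, 2.4 and 2.39 CPM in ON replicates 1 to 5. In OFF replicates 1 to 5 it was at 11.4, 8.38, 7.36, 6.48 and 11.3 CPM. Every OFF library lay far above the highest ON library, and the mean was 3.70 times as high in OFF (log2 difference -1.51 ± 0.13, SE; limma adjusted p = 3.3e-08). The gene lies on the same strand in an intron of K11H12.8, an expressed gene at 90.1 CPM on average whose log2 difference was 0.04 (adjusted p = 0.811). DY3.t2 (chromosome I, 8781154 to 8781238, minus strand) lies on the same strand in an intron of mfb-1, which was at 0.51 CPM and not tested. Its level was 4.18, 4.0, 3.43, 4.06 and 4.93 CPM in ON replicates 1 to 5 and 14.7, 10.2, 11.6, 9.82 and 17.7 CPM in OFF replicates 1 to 5. Again the groups lay far apart, with a mean 3.11 times as high in OFF (log2 difference -1.4 ± 0.13, SE; adjusted p = 1.8e-07). The differences within the 3 sets of library numbers were -1.76, -1.19 and -1.82 for K11H12.t1 and -1.35, -1.22 and -1.88 for DY3.t2. An exact permutation test of either gene gave a two-sided p of 0.00794, the smallest that 5 against 5 libraries allow.

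The third tRNA gene that fell was T22F3.t3 (chromosome V, 3588314 to 3588385). Its level was 1.09, 1.79, 2.78, 2.06 and 3.69 CPM in ON replicates 1 to 5 and 4.86, 4.21, 4.75, 2.35 and 5.26 CPM in OFF replicates 1 to 5. OFF replicate 4 lay below ON replicates 3 and 5, and the log2 difference was -0.71 ± 0.18 (SE; limma adjusted p = 0.0093, and 0.0523 without OFF replicate 2). The gene lies opposite to an intron of T22F3.2, which also fell, with a log2 difference of -0.57 (adjusted p = 0.0011). The use of strand in counting is not given, so reads of the host cannot be told apart from reads of the tRNA gene.

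The tRNA gene with the most reads, C04A11.t1 (chromosome X, 13665555 to 13665673, in no other gene), did not pass the test. It was at 27.6, 22.03, 12.01, 19.6 and 10.2 CPM in ON replicates 1 to 5 and 35.2, 16.8, 25.0, 25.6 and 29.1 CPM in OFF replicates 1 to 5. The groups overlapped, and the difference depended on the library set, at 0.17, -0.19 and -1.07. Its log2 difference of -0.55 ± 0.21 (SE) had a limma adjusted p of 0.0719, but 0.0074 without ON replicate 1, 0.0228 without ON replicate 2 and 0.0033 without the 3 libraries high in rRNA. F42F12.t1, also on X and of 120 nt, had a like pattern, with differences of 0.14, -0.08 and -0.87 in the 3 sets and an adjusted p of 0.103, and 0.0184 without ON replicate 1. The other tested tRNA genes, C36F7.t1 and Y54G2A.t2, were at 2.94 ± 0.604 and 1.08 ± 0.181 CPM in ON and 3.57 ± 1.38 and 0.93 ± 0.566 CPM in OFF, without a call (adjusted p = 0.483 and 0.542).

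Of the 79 tRNA members 30 lie in introns of protein-coding genes and 44 overlap no other gene. The 44 members outside other genes summed to 31.6 ± 7.27 CPM with GLP-1 ON and 41.2 ± 9.55 CPM with GLP-1 OFF (SD, n = 5), and these groups overlapped. C04A11.t1 made up most of these sums, and the other 43 summed to 13.3 ± 0.654 CPM and 14.9 ± 3.58 CPM, also with overlap. Whether members inside and outside other genes differ in response was not tested. For the 25 snRNA members outside other genes the sums were 205 ± 17.3 CPM and 271 ± 50.04 CPM. In CPM these groups narrowly missed overlap, at up to 233 CPM in ON and from 236 CPM in OFF. Chromosome X held 45.1% of the annotated nuclear tRNA genes and 41.7% of the nuclear tRNA members, and 3 of 129 annotated snRNA genes.

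Mitochondrial tRNAs, which are cut out of long transcripts of the mitochondrial genome, were all below the filter. The 19 members summed to 3.87 ± 0.597 CPM with GLP-1 ON and 3.28 ± 0.478 CPM with GLP-1 OFF (SD, n = 5), with overlapping groups. The log2 ratios within the 3 sets of library numbers were 0.23, 0.54 and 0.08, all above 0, whereas those of nuclear tRNA members were -0.50, -0.42 and -1.22. The difference between mitochondrial and nuclear tRNAs was not tested. The highest was MTCE.13, of 62 nt, at 0.89 ± 0.23 CPM with GLP-1 ON and 0.68 ± 0.16 CPM with GLP-1 OFF. Of the 19 members, 3 overlap by annotation with the ends of ctc-2, nduo-2 and ctb-1, abundant mitochondrial messenger RNAs.

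The 98 members below the filter gave little information on genotype. They rest on 5 to 235 reads over all 10 libraries, with a median of 34.5 reads for snRNA and 25.5 reads for tRNA genes. Of the 26 untested snRNA members 11 had a lower mean in ON, and of the 72 untested tRNA members 39. Besides sls-2.10, the groups were separate in 1 of the 98, the tRNA gene C02B4.t1 at 0.15 CPM with GLP-1 ON and 0.30 CPM with GLP-1 OFF on average, where among all 13784 genes above 0 in at least 5 libraries 6.21% were separate with ON lower. In the fit of these 13784 genes 4 snRNA members rose and 8 fell, and 0 tRNA members rose and 4 fell, where 4.97% of all genes rose and 6.46% fell.

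**Figure D5:**
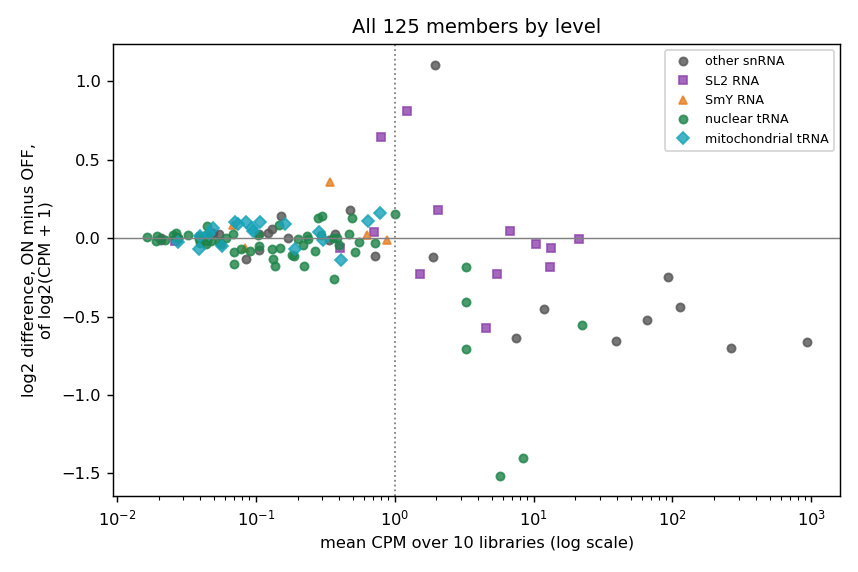
Log2 difference, ON minus OFF, of log2(CPM + 1) against the mean CPM over 10 libraries on a log scale, for all 125 members by family. The dotted line marks 1 CPM. Differences below about 1 CPM are compressed by the added 1 CPM. The members above 10 CPM lie below 0, from near 0 for the uncalled sls-2.14 and sls-2.15 to -0.70 for F42C5.12. Of all tested genes 59.5% lie below 0. The lowest points are K11H12.t1 and DY3.t2 at -1.51 and -1.4.

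By the correlation of log2(CPM + 1) over the 10 libraries, the tested genes outside both classes most like sup-6 were the snoRNA genes K07C11.11 (r = 0.98) and K07C11.12 (r = 0.98) and the non-coding gene C05D2.15 (r = 0.98). Their levels were 59.9 ± 5.83, 82.0 ± 7.76 and 307 ± 23.3 CPM in ON and 80.4 ± 13.2, 111 ± 21.4 and 440 ± 58.9 CPM in OFF. Of the 128 tested snoRNA genes 15.6% fell and 7.81% rose, near the 12.4% and 6.7% of all tested genes. The genes most like C04A11.t1 were the snoRNA gene Y74C9A.6 (r = 0.92), the protein-coding gene T01B4.3 (r = 0.91) and the non-coding gene C14B9.13 (r = 0.90). These correlations share the libraries' depth and composition and are given as a description.

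The lists of protein genes that make or bind these RNAs are read against all tested genes, of which limma called 6.7% higher and 12.4% lower, and 16.5% higher and 18.3% lower after TMM scaling. Of 18 tested genes for snRNA transcription by the SNAPc and Integrator complexes 0 were called by limma (3 after TMM scaling), and the abundant Integrator gene inst-1 averaged 208 ± 28.3 CPM with GLP-1 ON and 204 ± 41.0 CPM with GLP-1 OFF (SD, n = 5; adjusted p = 0.866). Of 17 genes for the SMN complex, which loads Sm rings, and for Sm and LSm proteins, 1 rose and 0 fell (3 and 1 after TMM scaling). It was lsm-4, which encodes a subunit of the LSm ring of U6 snRNA, with 16.5 ± 0.813 CPM against 13.6 ± 0.763 CPM in OFF (adjusted p = 0.0392). The Sm D1 gene snr-3 was at 140 ± 7.87 CPM and 140 ± 9.80 CPM (adjusted p = 0.990). Of 4 genes for proteins of trans-splicing 0 were called (1 after TMM scaling), among them C23G10.8 (sna-3 in current names; adjusted p = 0.687).

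Of 15 tested genes for RNA polymerase III and its factors 2 rose and 0 fell (2 and 0 after TMM scaling). The level of rpc-2, which encodes its second largest subunit, was 424 ± 43.1 CPM with GLP-1 ON and 336 ± 61.5 CPM with GLP-1 OFF (SD, n = 5; adjusted p = 0.0499 in limma), close to the threshold. The level of rpac-19, which encodes a subunit shared with RNA polymerase I, was 52.3 ± 4.84 CPM and 42.4 ± 5.40 CPM (adjusted p = 0.0454). The largest subunit gene rpc-1 was at 283 ± 29.9 CPM and 278 ± 47.8 CPM (adjusted p = 0.872).

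Of 7 genes for tRNA processing and export 0 were called by limma (1 after TMM scaling), with the tRNase Z gene hoe-1, whose product trims tRNA 3′ ends, at 180 ± 16.9 CPM with GLP-1 ON and 164 ± 25.4 CPM with GLP-1 OFF (adjusted p = 0.402). Of 16 genes listed for tRNA modification 1 rose, mtq-2, and 0 fell. It was at 8.01 ± 0.749 CPM with GLP-1 ON and 6.43 ± 0.437 CPM with GLP-1 OFF (adjusted p = 0.0455), and its product is known to methylate a glutamine of a protein, not a tRNA. After TMM scaling 10 of the 16 rose, so the count depends on the scale. The most abundant uncalled gene of the list, nol-1 (nsun-1 in current names), was at 277 ± 29.1 CPM and 233 ± 35.6 CPM (adjusted p = 0.129). A place on the list is no evidence that a product acts on tRNA, for nol-1 and nsun-5 as for mtq-2. The counts therefore do not speak for tRNA modification alone. Cytosolic aminoacyl-tRNA synthetases, which load tRNAs with amino acids, had 0 calls of 20 (8 higher and 1 lower after TMM scaling). The isoleucyl enzyme gene iars-1 was at 472 ± 37.6 CPM and 480 ± 65.6 CPM (adjusted p = 0.927). Of 12 mitochondrial synthetase genes 2 fell (2 rose and 5 fell after TMM scaling). They were the arginyl enzyme gene rars-2, from 47.2 ± 4.77 CPM to 33.4 ± 2.44 CPM in the ON libraries (adjusted p = 0.0010), and the tyrosyl enzyme gene yars-2, from 78.8 ± 9.12 CPM to 64 ± 1.02 CPM (adjusted p = 0.0363). The phenylalanyl enzyme gene fars-2 was at 689 ± 154 CPM and 812 ± 262 CPM (adjusted p = 0.473). Median log2 differences of these lists ran from -0.15 for the mitochondrial synthetases to 0.11 for tRNA modification, around the -0.05 of all tested genes.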

How the data were processed

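The authors deposited 1 table of CPM for 10 libraries. Per the submitters' processing notes, STAR 2.0.4b, Subread featureCounts 1.4.5, edgeR and limma were used. Strand use, the handling of reads with several matches, annotation release and genome build are not given in the labels or notes. The deposited signal values are CPM. Rows that repeat a gene identifier (462, with identical values) were dropped, which left 46536 genes. Whole reads were recovered by dividing by the smallest value above 0 of each library, and 100% of values came out whole within 0.01 read.

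Genes reaching 1 CPM in 5 or more libraries (6833) were tested with limma (version 3.58.1, R 4.3.3, trended variance) on log2(CPM + 1). P-values are two-sided and adjusted over these genes by the Benjamini-Hochberg method, and adjusted p-values in the text come from this limma fit unless another is named. The procedure was also run on simulated counts that had no shift in composition between libraries, so that run does not speak for the choice of scaling. Single genes also had an exact permutation test. Reads carry no molecular identifiers here, so low values have at least counting error.

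Families come from gene symbols. Positions and lengths come from the Ensembl annotation of WBcel235, which holds all 125 member identifiers; the build of the authors' files may differ. Members, gene lists and tests were chosen with earlier results of these data known. Named genes are the called members and the 8 most abundant members of each class, up to 3 called genes and the most abundant uncalled gene of each list, and the 3 genes most like the most abundant member of each class. The other members named were chosen after their values were seen. Alternatives were pseudocounts of 0.25 and 5 CPM, no filter, TMM and median-ratio scaling, scaling to reads outside rRNA genes, the replicate number as a block, the library-number set as a term, edgeR 4.0.16 and DESeq2 1.42.0 on recovered reads, and leaving out each library. Scaling to snoRNA reads and leaving out the 3 libraries highest in rRNA were chosen after seeing the data.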

Additional observations from a re-analysis of the deposited data

Results flagged for a closer look

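A single library stood apart from the others of its group in 2 of 56 groups of 5 checked by Dixon's test, where chance flags about 1 in 20. ON replicate 2 was high for the summed snRNAs outside the SL2 and SmY families, at 1456 CPM against 1113 to 1205 CPM in the other ON libraries. OFF replicate 1 was high for F32B5.9, at 178 CPM against 113.3 to 123.9 CPM in the other OFF libraries. Both libraries were among the 3 with over 48% of reads in rRNA genes, and the part of the rRNA share in these values was not tested.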

How the results depend on the processing

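Of 20 single members followed, 14 had the same call under every alternative run. The number of all genes higher in ON was 458, and 1127 after TMM scaling, 1219 after median-ratio scaling, 780 when scaled to reads outside rRNA genes, 1145 with edgeR and 1323 with DESeq2. The number lower was 847, and 1275 when scaled to reads outside rRNA genes, 1458 without the 3 libraries highest in rRNA and 233 when scaled to snoRNA reads, so the split between higher and lower depends on the scaling (458 to 847, and 1127 to 1250 after TMM). Leaving out each library gave 346 to 628 higher and 620 to 1060 lower. For snRNA, 4 instead of 2 rose without the filter, 5 instead of 8 fell when scaled to snoRNA reads, and leave-one-out gave 7 to 8. For tRNA, 3 fell, 5 with the replicate number as a block, and 2 to 5 in leave-one-out, with 2 without OFF replicate 2 and 5 without ON replicate 1. The block left the snRNA counts at 8 and 2; same-numbered libraries deviated together with correlations from -0.02 to 0.46, so the numbers are not taken to pair the libraries, and the block called C04A11.t1 (adjusted p = 0.0119) and F42F12.t1 (adjusted p = 0.0347) by limma. The log2 ratio of the tRNA total was -0.38 for members outside other genes (-0.16 without C04A11.t1), and leave-one-out gave -0.76 to -0.57 for tRNA and -0.67 to -0.47 for snRNA. The cause of these changes was not tested. Members below the filter rest on 5 to 235 reads, which limits what could be detected in them.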
